A study of Mus musculus with 9 samples.

Results

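The MYC, MAX and MXD network is described here through the 10 genes Myc, Mycn, Max, Mxd1, Mxd3, Mxd4, Mxi1, Mnt, Mlx and Mlxip. They were chosen by symbol from the 48795 gene IDs of the RNA count files, each had 1 matching Ensembl ID, and all 10 passed the low-count filter that left 15546 tested genes. The study compared follicular B cells of the mouse spleen, the recirculating B cells that answer most antigens, with and without deletion of Yy1, the gene of the zinc finger transcription factor YY1. The tatcre group (3 RNA libraries) holds cells treated with TAT-CRE, a cell-permeable Cre recombinase, and the mock group (3 RNA libraries) holds cells given a mock treatment. Both groups came from C57BL/6 yy1 f/f mice, whose Yy1 gene carries loxP sites, were selected on the surface protein CD23, and were cultured with LPS and IL-4, a combination that activates B cells. The series text gives 72 hours of culture with 10% serum and the sample text gives 48 hours with 20% serum. The recombinase was added to cells in culture, so no promoter restricts it to a cell type. Following the titles, the mock cells are taken not to have received it, although the treatment text names TAT-CRE for all samples. On that reading, exposure to the recombinase and loss of Yy1 cannot be told apart.

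MYC is a transcription factor that B cells switch on when they are activated to grow and divide. It binds DNA only as a dimer with MAX, at a short sequence called the E-box, and there it raises transcription of genes for ribosome assembly, metabolism and the cell cycle. The MXD proteins (MXD1, MXD3, MXD4 and MXI1) and MNT also pair with MAX, bind the same sequence, and recruit SIN3 corepressors that lower transcription. A parallel branch uses MLX in place of MAX, with the glucose-responsive activator MLXIP as its partner, and the branches share some MXD proteins and MNT. The balance of activating and repressing partners is what the network is known for, and the comparison of activators with repressors in tatcre and mock cells addresses it at the level of RNA.

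The E-box was looked for in the promoters of the members, in windows of 300 bases on GRCm38 (250 before and 50 after a start). For Max, Mnt and Mlx the start used for the window lies inside the RefSeq gene. These genes begin further upstream, Max at 76962323, Mnt at 74830806 and Mlx at 101086707. The distances below are to the start used for the window. Windows were given for 9 members, all but Myc, and numbered 11 because Mxi1 has several starts. The letters CACGTG, which read the same on both strands, were found in the windows of 4 genes, Mxd4, Mnt, Mlx and Max, and in 7.15% of the 32851 windows of all genes. The stretches below are shown because they hold the network's own binding sequence in the promoters of its members, with the E-box in capitals and each stretch on the strand of its gene.
Mxd4, chr5:34187904-34187949, minus strand, E-box beginning 219 bases before the start: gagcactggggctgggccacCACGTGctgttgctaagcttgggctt
Mnt, chr11:74830781-74830826, plus strand, E-box beginning 123 bases before the start: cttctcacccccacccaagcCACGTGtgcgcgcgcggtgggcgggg
Mlx, chr11:101087230-101087275, plus strand, E-box beginning 40 bases before the start: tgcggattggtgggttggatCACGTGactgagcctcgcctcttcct
Max, chr12:76962246-76962271, minus strand, E-box beginning 3 bases before the start and lying across it: cccggcgcggtgagcccggtCACGTG
A YY1-type sequence, AANATGGC on either strand, was found in 6.05% of all windows and in 0 of the 11 windows of the members. Only exact matches were counted. At a share of 6.05%, 11 windows are too few for this count to set the members apart from other genes. A match of letters is a description of the window and not a measured site. YY1 ChIP-seq peaks were not assigned to these genes, because peaks lie past the last RefSeq genes of some GRCm38 chromosomes and the build of the peak coordinates is not settled.

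The libraries held 22729187 to 28230727 gene counts. Yy1 had 24, 36 and 50 counts in the tatcre libraries against 2655, 3018 and 2542 counts in the mock libraries, so every library matched its label. The labels do not tie a library to a mouse, so the tests rest on the spread from library to library, which may be technical. Of 10 B cell markers 6 were lower in tatcre cells. Of all tested genes 16.3% were lower, as were 24.3% of those whose log2 CPM averaged 5 or more. Cd79a, Cd79b, Ms4a1 and Cd37 were not called. Cd79b had 395 to 444 CPM in tatcre and 353 to 406 CPM in mock libraries. The 10 markers summed to 4620 to 4790 CPM in tatcre and 5720 to 6010 CPM in mock libraries. Within this sum Fcer2a had 720 to 771 CPM in tatcre and 1130 to 1160 CPM in mock libraries. CPM express the count of a gene relative to the TMM-scaled total of its library, and are not divided by gene length. The summed markers of plasma cells (633 to 695 CPM in tatcre, 812 to 851 CPM in mock, with Irf4 leading) and of dendritic cells (106 to 113 CPM in tatcre, 120 to 134 CPM in mock, nearly all from Flt3) also differed between the groups. Those of T cells (10.5 to 14.4 CPM in tatcre, 16 to 23 CPM in mock) came mostly from Lck, with Cd3e at most 0.501 CPM in any tatcre and 0.148 CPM in any mock library. Those of macrophages (12 to 15.8 CPM in tatcre, 22.4 to 28 CPM in mock) came mostly from Cd68, with Cd14 at 0 in all libraries. NK cell, neutrophil and erythroid markers summed to at most 0.809 CPM in any library. Of the 5 plasma cell markers tested 2 were lower in tatcre cells, Irf4 and Jchain. Irf4 had 316 to 339 CPM in tatcre and 420 to 460 CPM in mock libraries. Sdc1, Prdm1 and Xbp1 were not called. In bulk RNA, fewer cells of a type and less RNA per cell cannot be told apart, and the part of these marker differences in the results below was not tested.

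Of the 10 network genes, 2 were lower in tatcre cells (Myc and Mnt), 1 was higher (Mxd1) and 7 did not pass the test. The test was edgeR's quasi-likelihood test with Benjamini-Hochberg adjustment over all tested genes and a threshold of 0.05. Of all tested genes 16.3% were lower, 10.8% were higher and 27.1% changed in either direction, so the 30% of network genes that changed lies close to the share of all genes. Falls made up 60.2% of all calls, 48.5% with upper-quartile scaling and 42% with library size alone. The median log2 fold change was -0.007 over the members and 0.024 over all tested genes, and 5 members had a positive and 5 a negative value. The changes thus ran in both directions and crossed the functional classes: 1 of 3 activators fell, and among 5 repressors 1 fell and 1 rose.

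**Figure D1:**
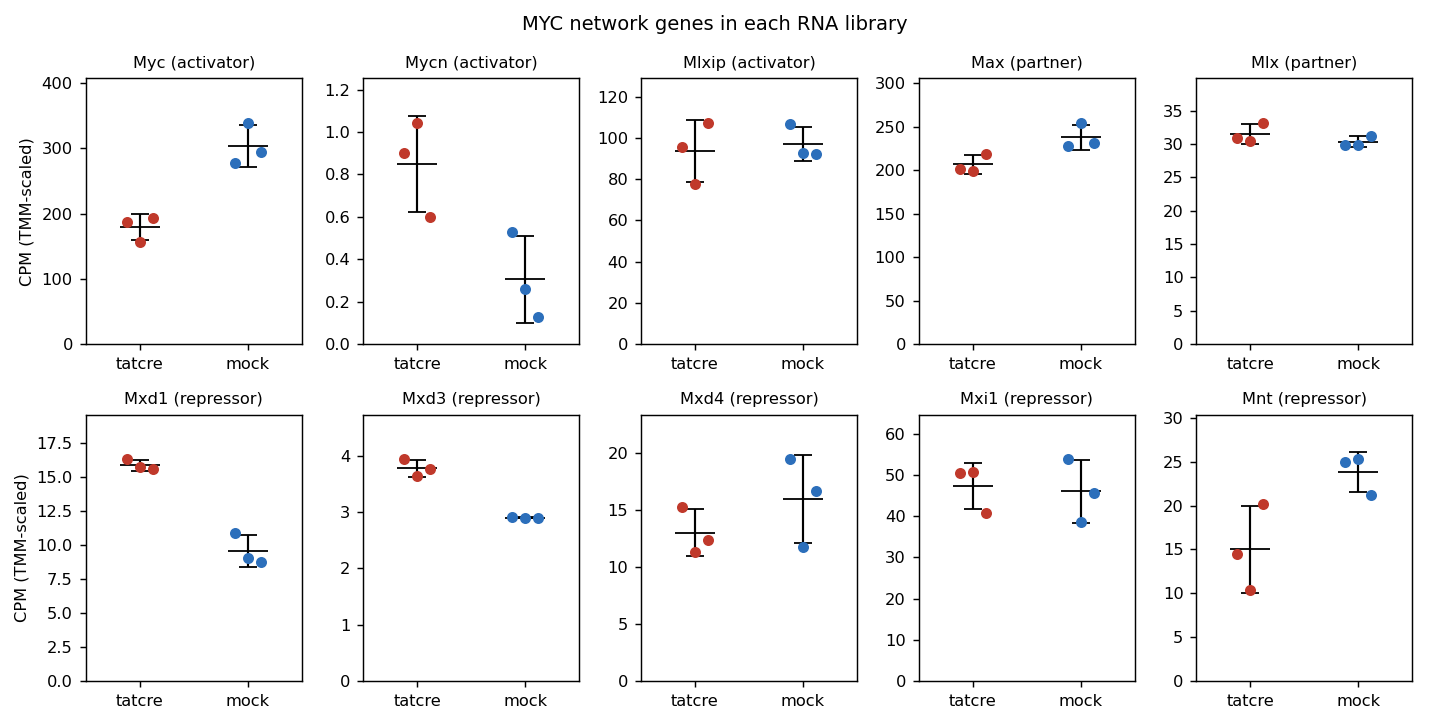
Level of each network gene in each RNA library, in CPM on a linear axis from 0 (a separate scale for each gene), with tatcre libraries at the left and mock libraries at the right of each panel. Points are libraries, the horizontal mark is the mean and the bar is the SD (n = 3 each). The groups do not overlap for Myc, Mycn, Max, Mxd1, Mxd3 and Mnt, and they overlap for the other 4. Groups did not overlap for 44% of all tested genes either, and Mycn, Max and Mxd3 were not called.

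The activators come first. Myc (ENSMUSG00000022346, chromosome 15, 61985341 to 61990361 in GRCm38) had 188, 157 and 193 CPM in the tatcre libraries 1, 2 and 3, against 278, 340 and 295 CPM in the mock libraries. All tatcre libraries lay below all mock libraries, and within each group the highest library was 1.23- and 1.22-fold above the lowest. The mean was 179 ± 19.4 CPM in tatcre cells and 304 ± 31.9 CPM in mock cells (SD, n = 3 each). Myc RNA was thus 1.69-fold lower in tatcre cells, with a log2 fold change of -0.76 (SE 0.10, 95% interval -0.99 to -0.54, edgeR adjusted p = 0.000368). This difference was larger than the spread between replicates, and 6.81% of all tested genes had a lower fold change.

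Mycn encodes N-MYC, the family member best known from embryonic and neural tissue. It was near the limit of detection, with 22, 25 and 15 counts in the tatcre libraries against 14, 7 and 3 counts in the mock libraries. In each tatcre library the count was above that of every mock library, but mock 3 stood at 3 counts, the number that a count of 0 allows. The mean was 0.849 ± 0.226 CPM in tatcre cells and 0.305 ± 0.204 CPM in mock cells (SD, n = 3 each). The log2 fold change of 1.45 had a wide error (SE 0.60, 95% interval 0.12 to 2.78) and did not pass the adjusted threshold (edgeR adjusted p = 0.101). Mycl, the third MYC gene and not one of the 10, was also scarce and ran the other way. It had 6, 3 and 3 counts in the tatcre libraries against 34, 28 and 27 counts in the mock libraries. Its fitted log2 fold change was -2.78 (SE 0.55, 95% interval -3.99 to -1.58, edgeR adjusted p = 0.00354), a value that rests on these few counts.

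Mlxip, the activator of the MLX branch, showed no clear difference. It had 95.7, 77.7 and 107 CPM in the tatcre libraries and 107, 92.8 and 92.2 CPM in the mock libraries. The ranges overlapped, and both the lowest and the highest library were tatcre libraries. The log2 fold change was -0.05 (SE 0.12, 95% interval -0.31 to 0.20, edgeR adjusted p = 0.755), an interval that excludes a change as large as that of Myc.

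The shared partners moved little. Max, the obligate partner of MYC and of the MXD proteins (ENSMUSG00000059436, chromosome 12, 76937269 to 76962323), had 202, 200 and 219 CPM in the tatcre libraries against 228, 255 and 231 CPM in the mock libraries. The groups did not overlap, as was the case for 6 of the 10 members and for 44% of all tested genes. The log2 fold change of -0.20 (SE 0.08, 95% interval -0.38 to -0.03) did not pass after adjustment (edgeR adjusted p = 0.081). Mlx, which takes the place of MAX in the parallel branch, had 30.4 to 33.2 CPM in tatcre and 29.9 to 31.3 CPM in mock libraries. Its log2 fold change was 0.05 (SE 0.09, 95% interval -0.14 to 0.25, edgeR adjusted p = 0.672). Mlx had the smallest spread among the members in the tatcre libraries after Mxd1 and Mxd3, with a coefficient of variation of 4.7%.

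Among the repressors, Mxd1 was the gene that rose. MXD1 is the MXD protein best known for its appearance as cells stop dividing and differentiate. Mxd1 (ENSMUSG00000001156, chromosome 6, 86647044 to 86669234) had 16.3, 15.7 and 15.6 CPM in the tatcre libraries against 10.9, 9.04 and 8.73 CPM in the mock libraries. The tatcre libraries lay within 1.05-fold of each other and all stood above the mock libraries. The mean was 15.8 ± 0.381 CPM in tatcre cells and 9.55 ± 1.16 CPM in mock cells (SD, n = 3 each). Mxd1 was 1.66-fold higher in tatcre cells, with a log2 fold change of 0.73 (SE 0.12, 95% interval 0.46 to 1.00, edgeR adjusted p = 0.00147).

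Mnt fell, with a coefficient of variation of 32.9% over the tatcre libraries. MNT is the broadly expressed repressor that occupies MAX in resting and dividing cells alike. Mnt (ENSMUSG00000000282, chromosome 11, 74830806 to 74845725) had 14.5, 10.4 and 20.2 CPM in the tatcre libraries against 25, 25.3 and 21.2 CPM in the mock libraries. The groups did not overlap, but tatcre 3 lay just under mock 3, and tatcre 3 was 1.95-fold above tatcre 2. The mean was 15 ± 4.93 CPM in tatcre cells and 23.8 ± 2.27 CPM in mock cells (SD, n = 3 each). Mnt was 1.59-fold lower in tatcre cells, at -0.67 on the log2 scale (SE 0.20, 95% interval -1.10 to -0.24, edgeR adjusted p = 0.0276). The call ended without mock 1 (log2 fold change -0.64, edgeR adjusted p = 0.0664), without mock 2 (-0.63, edgeR adjusted p = 0.0945), without tatcre 1 (-0.65, edgeR adjusted p = 0.073) and with library size alone (-0.57, edgeR adjusted p = 0.0518).

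The other repressors did not pass the test. Mxd3, an MXD gene known from cells in S phase, had 3.94, 3.63 and 3.77 CPM in the tatcre libraries against 2.91, 2.89 and 2.90 CPM in the mock libraries. These groups did not overlap, but the counts behind them were only 87 to 96 in tatcre and 68 to 78 in mock libraries. The log2 fold change was 0.38 (SE 0.20, 95% interval -0.06 to 0.83, edgeR adjusted p = 0.187). Mxd4, described as an MXD protein of differentiating cells, had 11.3 to 15.3 CPM in tatcre and 11.8 to 19.4 CPM in mock libraries. Its groups overlapped because mock 2 was low, and the log2 fold change was -0.29 (SE 0.18, 95% interval -0.69 to 0.11, edgeR adjusted p = 0.256). Mxi1, the fourth MXD gene, had 40.9 to 50.7 CPM in tatcre and 38.7 to 53.8 CPM in mock libraries. Its log2 fold change was 0.04 (SE 0.13, 95% interval -0.24 to 0.33, edgeR adjusted p = 0.839), so that a change as large as that of Mxd1 lies outside its interval.

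**Figure D2:**
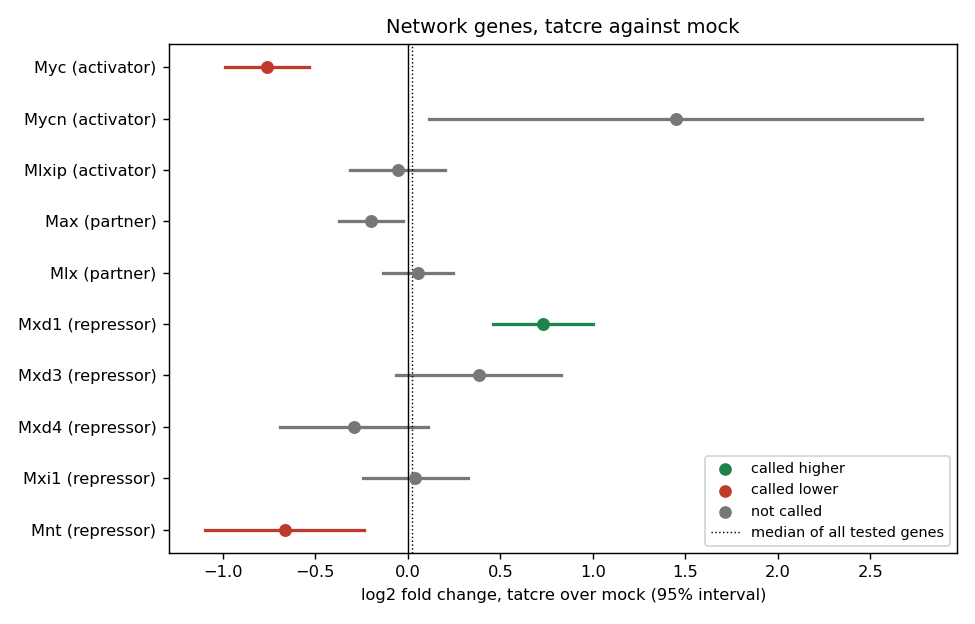
Log2 fold change of each network gene in tatcre over mock cells (points) with its 95% interval from the edgeR fit (bars, 3 libraries per group), ordered by role; the dotted line is the median of all tested genes, 0.024. Myc at -0.76 and Mnt at -0.67 lie to the left and Mxd1 at 0.73 to the right, while Mycn at 1.45 has the widest interval, 0.12 to 2.78, and was not called.

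Reads over 4 of these genes may be shared with another RefSeq gene that overlaps them: Psmc3ip at Mlx, Prelid1 at Mxd3, and the long noncoding genes Gm38850 at Mxd1 and Gm30541 at Mxi1. Whether counting used the strand is not stated in the sources at hand. Prelid1 had 2928 to 3281 counts in tatcre and 5596 to 6560 counts in mock libraries, opposite in direction to the Mxd3 values. Psmc3ip had 449 to 517 counts in tatcre and 454 to 557 counts in mock libraries. The part of such reads in the member values was not tested.

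Activators were then set against repressors within each library, which removes the library scaling from the comparison. CPM are not divided by transcript length, so a ratio shows a difference between groups and not which protein is in excess. Since the members were chosen with earlier results known, the ratios are given without a test. The log2 ratio of Myc to Max was -0.10, -0.34 and -0.18 in the tatcre libraries against 0.28, 0.41 and 0.35 in the mock libraries. It was -0.21 ± 0.12 in tatcre and 0.35 ± 0.06 in mock cells (SD, n = 3 each), a difference of -0.56, with no overlap between the groups. Myc RNA was thus lower relative to the RNA of its partner in every tatcre library.

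The log2 ratio of Myc to the sum of the 4 MXD genes was 1.13, 0.95 and 1.41 in the tatcre libraries against 1.67, 2.44 and 2.0 in the mock libraries. The means were 1.16 ± 0.23 in tatcre and 2.04 ± 0.39 in mock cells (SD, n = 3 each), a difference of -0.88 with no overlap. The MXD sum itself was 72.6 to 86 CPM in tatcre and 62.4 to 87 CPM in mock libraries, and Mxi1 made up 56.3 to 62.3% of it. The groups overlapped in this sum. The log2 ratio of Myc to Mnt was 3.70, 3.92 and 3.26 in tatcre and 3.47, 3.75 and 3.80 in mock libraries. With means of 3.63 ± 0.34 in tatcre and 3.67 ± 0.17 in mock cells (SD, n = 3 each) the groups overlapped, Myc and Mnt both being lower in tatcre cells.

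All 3 activators over all 5 repressors gave log2 ratios of 1.5, 1.36 and 1.70 in tatcre and 1.78, 2.30 and 2.03 in mock libraries. The difference of -0.52 was smaller than for Myc over the MXD genes. The sums behind it were 236 to 301 CPM of activators in tatcre against 385 to 433 CPM in mock libraries, and 91.7 to 100.4 CPM of repressors in tatcre against 87.6 to 112 CPM in mock libraries. Myc made up 64.2 to 78.5% of the activator sum, so the lower activator sum of every tatcre library is largely the Myc value again, while Mlxip overlapped between the groups. Repressor sums overlapped as well. In the MLX branch the log2 ratio of Mlxip to Mlx was 1.56 ± 0.18 in tatcre and 1.68 ± 0.14 in mock cells (SD, n = 3 each), with overlap.

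**Figure D3:**
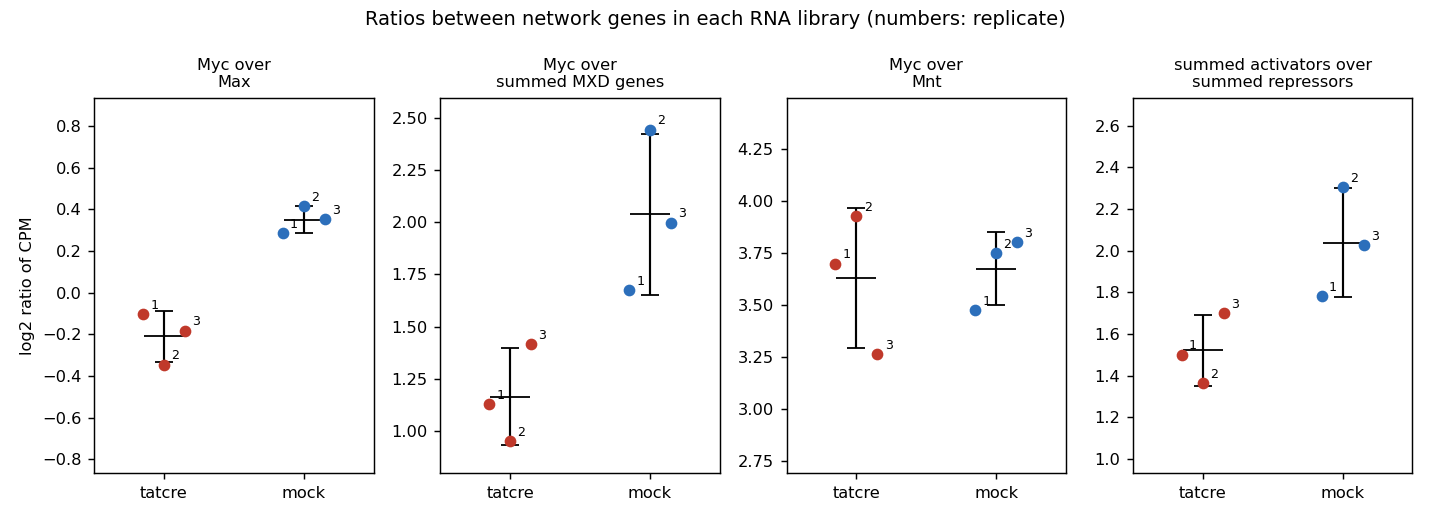
Log2 ratios of CPM between network genes within each library, with tatcre libraries at the left and mock libraries at the right of each panel; points are libraries with their replicate number, the horizontal mark is the mean, the bar is the SD (n = 3 each), and every panel spans the same number of log2 units. Myc over Max (means -0.21 in tatcre and 0.35 in mock) and Myc over the summed MXD genes (1.16 in tatcre and 2.04 in mock) separate the groups, and Myc over Mnt (3.63 in tatcre and 3.67 in mock) does not.

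Genes whose pattern over the 6 libraries was most like that of a member were listed by the root-mean-square difference of centred log2 CPM among 6921 well-expressed genes. Nearest to Myc were Apex1, an abasic site endonuclease (0.03 log2 units), Nob1, a nuclease of small ribosomal subunit maturation (0.03), Chd3, a chromatin remodeller (0.04), Lsm5, an Sm-like protein of RNA processing (0.04), and Slc35f2, a solute carrier (0.06), against a median difference of 0.39 over all candidates. Nearest to Mxd1 were Fbxl20 (0.06) and Itgb3 (0.07), and nearest to Mnt were Tgfb1 (0.12) and Tmem97 (0.13). These distances describe the 6 libraries and were not tested.

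Of 26 tested genes for partners and cofactors of the network, 11 fell, 2 rose and 13 did not pass, or 42.3% lower and 7.69% higher, against 16.3% and 10.8% of all tested genes. Among the 5525 tested genes whose log2 CPM averaged 5 or more, 24.3% were lower and 11.7% were higher. The median log2 fold change of the partner list was -0.15, against 0.024 over all tested genes. L3mbtl2, a chromatin protein of the complex in which MAX pairs with MGA, was 23 ± 2.26 CPM in tatcre and 61.5 ± 3.95 CPM in mock cells (SD, n = 3 each). It was 2.67-fold lower in tatcre cells (edgeR adjusted p = 5.15e-06, log2 fold change -1.42), with 20.8 to 25.3 CPM in tatcre and 57.7 to 65.6 CPM in mock libraries. E2f6, the E2F-family repressor of the same complex, fell 1.59-fold (24.8 ± 1.66 CPM in tatcre, 39.4 ± 3.60 CPM in mock; edgeR adjusted p = 0.000746). Mga itself had 209 ± 9.68 CPM in tatcre and 186 ± 13.2 CPM in mock cells (SD, n = 3 each; edgeR adjusted p = 0.146), and Pcgf6, another subunit, had a log2 fold change of 0.06 (edgeR adjusted p = 0.67).

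Of the SIN3 scaffold genes that serve MXD and MNT, Sin3b fell 1.58-fold (32.5 ± 1.39 CPM in tatcre, 51.5 ± 3.25 CPM in mock; edgeR adjusted p = 0.000318). Sin3a had 143 ± 9.65 CPM in tatcre and 126 ± 3.93 CPM in mock cells (SD, n = 3 each; edgeR adjusted p = 0.105). Among histone deacetylases Hdac1 fell (19.5 CPM in tatcre, 25.4 CPM in mock; edgeR adjusted p = 0.00972), and Hdac2 and Hdac3 did not pass (edgeR adjusted p = 0.737 and 0.195). Zbtb17, which encodes MIZ1, the factor through which MYC represses genes, rose 1.38-fold (55.3 ± 6.47 CPM in tatcre, 40.1 ± 1.61 CPM in mock; edgeR adjusted p = 0.00582). Mycbp, a small MYC-binding protein gene, rose as well (32.6 CPM in tatcre, 23.7 CPM in mock; edgeR adjusted p = 0.00751), a call that ended without tatcre 1 (edgeR adjusted p = 0.0504).

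Of 25 genes that act on the stability or phosphorylation of MYC protein, 7 fell (28%), 3 rose (12%) and 15 did not pass, against 16.3% lower and 10.8% higher among all tested genes. Among tested genes of log2 CPM 5 or more, 24.3% were lower and 11.7% were higher, close to the shares of this list. The median log2 fold change of the list was 0.03, next to 0.024 over all tested genes. Fbxw7, the ubiquitin ligase subunit that marks phosphorylated MYC for destruction, fell 1.41-fold (156 ± 1.85 CPM in tatcre, 220 ± 10 CPM in mock; SD, n = 3 each; edgeR adjusted p = 0.000646). Skp2, another ubiquitin ligase subunit that acts on MYC, rose 1.48-fold (39.3 ± 1.1 CPM in tatcre, 26.6 ± 1.59 CPM in mock; edgeR adjusted p = 0.000922). Gsk3b, the kinase whose mark FBXW7 reads, rose (62.6 CPM in tatcre, 46.2 CPM in mock; edgeR adjusted p = 0.00498), as did the deubiquitinase gene Usp37 (edgeR adjusted p = 0.0174). The Usp37 call ended without mock 2 or mock 3 (edgeR adjusted p = 0.0631 and 0.0587). Aurka, a kinase that shields MYC proteins from FBXW7, fell (79.3 CPM in tatcre, 101 CPM in mock; edgeR adjusted p = 0.00632), as did Ppp2r5a, a phosphatase subunit (edgeR adjusted p = 0.00376).

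Genes commonly listed as MYC targets were described through 3 lists by role, with 90 tested genes in all. Of these 33 fell (36.7%, against 16.3% of all tested genes), 4 rose (4.44%, against 10.8%) and 53 did not pass, and the median log2 fold change was -0.24. These are well-expressed genes, with a median log2 CPM of 6.79. Among all 5525 tested genes whose log2 CPM averaged 5 or more, 24.3% fell and 11.7% rose. Their median log2 fold change was -0.06. These 5525 genes were set by the cutoff of 5 alone and were not matched to the targets in level.

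In the list of nucleolus and ribosome assembly, 13 of 34 genes fell (38.2%), 2 rose (5.88%) and 19 did not pass. Of all tested genes 16.3% fell and 10.8% rose, and of those of log2 CPM 5 or more 24.3% fell and 11.7% rose. The median log2 fold change of the list was -0.32. Of the 34, 8 fell when mock 2 was left out, 8 when tatcre 1 was left out, and 22 when no filter on low counts was used. Bop1 and Pes1, which work together in large ribosomal subunit assembly, fell 1.78- and 1.41-fold (edgeR adjusted p = 0.00136 and 0.00335). Tcof1, a factor of ribosomal RNA transcription, fell 1.49-fold (170 ± 23.1 CPM in tatcre, 253 ± 16.4 CPM in mock; edgeR adjusted p = 0.00204). Against this direction Utp20, a small subunit processome protein gene, rose 2.22-fold (226 ± 19.9 CPM in tatcre, 102 ± 16.1 CPM in mock; edgeR adjusted p = 5.44e-05). Wdr12 rose (edgeR adjusted p = 0.0444), a call lost without mock 1, without mock 3 or without any 1 of the tatcre libraries (edgeR adjusted p from 0.0555 to 0.14). Npm1, which encodes the abundant nucleolar protein nucleophosmin, had 987 CPM in tatcre and 974 CPM in mock cells (edgeR adjusted p = 0.915).

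In the list of metabolism, nucleotides and polyamines, 12 of 28 genes fell (42.9%), 1 rose (3.57%) and 15 did not pass. The shares were 16.3% and 10.8% of all tested genes, and 24.3% and 11.7% of those of log2 CPM 5 or more. The median log2 fold change of the list was -0.30. The falls with the smallest p were those of Slc2a1, Ldha and Hk2, genes of glucose uptake and glycolysis, at 1.63-, 1.45- and 1.63-fold (edgeR adjusted p = 0.000318, 0.00051 and 0.000605). Textbook targets did not all move: Odc1, the rate-limiting enzyme of polyamine synthesis, had 121 CPM in tatcre and 125 CPM in mock cells (edgeR adjusted p = 0.737). Cad, which starts pyrimidine synthesis, had 128 CPM in tatcre and 137 CPM in mock cells (edgeR adjusted p = 0.641).

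In the list of translation, chaperones and cell cycle, 8 of 28 genes fell (28.6%), 1 rose (3.57%) and 19 did not pass. Of all tested genes 16.3% fell and 10.8% rose. Among those of log2 CPM 5 or more, 24.3% fell, a share near that of this list, and 11.7% rose. The median log2 fold change of the list was -0.12, and 5 of its genes fell without mock 2. Prmt5, an arginine methyltransferase, fell 3.01-fold, with 54.4 to 65.8 CPM in tatcre and 163 to 201 CPM in mock libraries (edgeR adjusted p = 3.89e-06). Bcat1, a branched-chain aminotransferase, fell 2.33-fold (edgeR adjusted p = 5.58e-05), and Mcm5, a subunit of the replicative helicase, fell 2-fold (edgeR adjusted p = 3.42e-05). E2f2, an E2F activator of S phase genes, rose 1.38-fold (edgeR adjusted p = 0.0144), a call lost without mock 3 (edgeR adjusted p = 0.0515). The cell cycle targets Ccnd2 and Cdk4 were not called (edgeR adjusted p = 0.404 and 0.434).

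**Figure D4:**
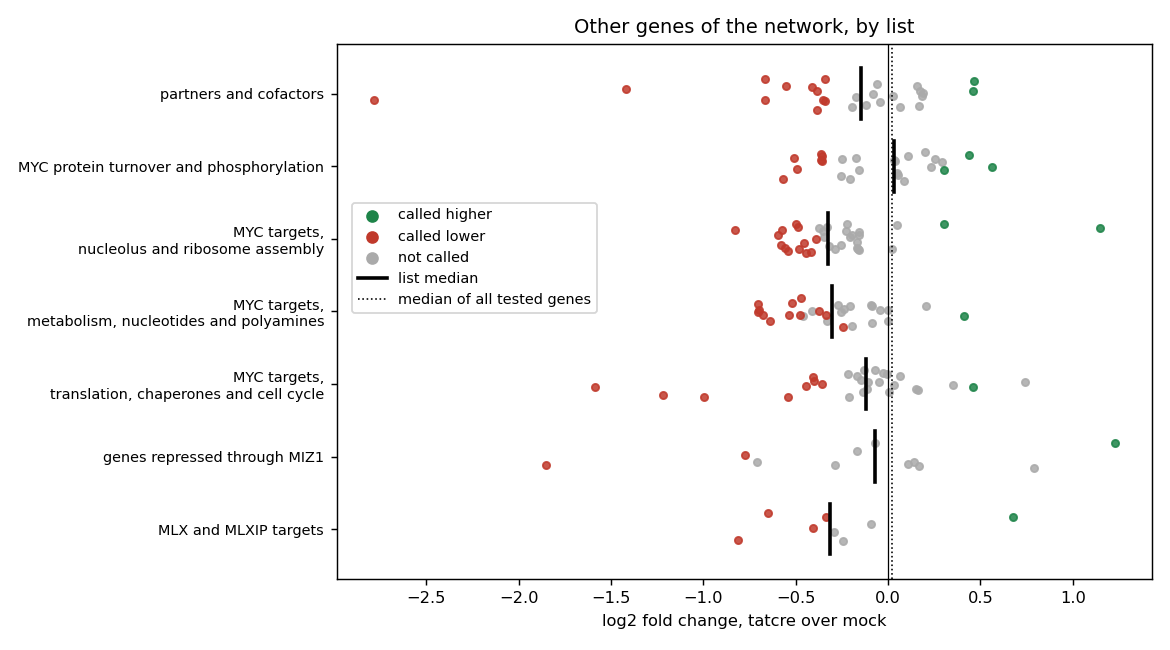
Log2 fold change in tatcre over mock cells of every tested gene in 7 lists around the network (1 point per gene, spread vertically for legibility), with the median of each list as a black bar and the median of all tested genes, 0.024, as a dotted line. The medians of the 3 MYC target lists lie at -0.32, -0.30 and -0.12, and single genes such as Utp20 at 1.15 and Cdkn1a at 1.23 lie far to the right.

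Of 11 genes listed as repressed by MYC through MIZ1, 2 fell (18.2%), 1 rose (9.09%) and 8 did not pass. These shares are close to the 16.3% and 10.8% of all tested genes. Cdkn1a, the gene of the cell cycle inhibitor p21, rose 2.35-fold (edgeR adjusted p = 2.59e-05). Ndrg1, a growth-arrest and differentiation gene, fell 3.61-fold, with 3.69 to 3.81 CPM in tatcre and 11.1 to 15.3 CPM in mock libraries (edgeR adjusted p = 1.82e-05). Gadd45b fell 1.71-fold (edgeR adjusted p = 0.00272).

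Of 12 genes listed as targets of MLX and MLXIP, 8 were tested, of which 4 fell (50%), 1 rose (12.5%) and 3 did not pass. Among all tested genes 16.3% were lower and 10.8% were higher. Among those of log2 CPM 5 or more the shares were 24.3% and 11.7%. Txnip, the classic glucose-responsive target of the MLX branch, had 217 ± 16.4 CPM in tatcre and 231 CPM in mock cells (log2 fold change -0.09, edgeR adjusted p = 0.511). Arrdc4, its relative, did not pass the low-count filter. Pfkfb3, a regulator of glycolytic flux, fell 1.76-fold (28.4 ± 0.214 CPM in tatcre, 50 ± 2.19 CPM in mock; SD, n = 3 each; edgeR adjusted p = 5.81e-05). Bhlhe40 and Acaca fell as well (edgeR adjusted p = 0.00308 and 0.0111). Klf10 rose (5.42 CPM in tatcre, 3.38 CPM in mock; edgeR adjusted p = 0.0218), a call lost without mock 2, mock 3 or tatcre 1 (edgeR adjusted p = 0.0718, 0.0852 and 0.0583).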

How the data were processed

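Titles set the group and replicate number of each library, since the treatment text names TAT-CRE for all samples. The authors deposited unnormalised whole-number counts for each gene and library. The submitters' processing notes name the build mm10 and the tools HTSeq, TopHat2, Trimmomatic, SAMtools and MACS2, without versions. Annotation and strand setting are not stated there. The 3 ChIP peak lists were not used. Symbols were matched for 48349 of 48795 gene IDs.

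Genes were kept with filterByExpr (minimum count 10, minimum total 15). The fit of tatcre against mock used TMM scaling and the quasi-likelihood test of edgeR 4.0.16 in R 4.3.3, and DESeq2 1.42.0 was an alternative; the test was checked on simulated data. The floor of a library was taken as 3 counts (0.111 to 0.128 CPM), which covers counting error only. No replicate pair agreed within sampling noise (chi-square per degree of freedom at least 7.5). The planned division by transcript length was not made, as no lengths were at hand.

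The members and lists were chosen with earlier results of these data known. Named were all members, the 3 called genes of smallest p in each direction of each list, Txnip and Arrdc4, and the genes nearest in pattern (5 for Myc, 2 for others, given here for the members that changed). Other genes (Mycl, Mga, Pcgf6, Sin3a, Hdac1, Hdac2, Hdac3, Npm1, Odc1, Cad, Ccnd2 and Cdk4) were picked from the lists after their values were seen. The values of 1 gene that this rule names are not reported here.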

Additional observations from a re-analysis of the deposited data

How the results depend on the processing

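The fall of Myc (log2 fold change -0.83 to -0.66) and the rise of Mxd1 (0.65 to 0.83) kept their calls under RLE, upper-quartile or no scaling, without the filter, with DESeq2, with the replicate block and without any 1 library. Mnt with library size alone had -0.57 and lost its call, which left 1 member lower; without single libraries its value ran from -0.95 to -0.46, and 1 to 2 members were lower. Library size alone moved the median of all tested genes from 0.024 to 0.129. Mlxip, not called, turned to 0.0095 with upper-quartile factors and 0.0462 with library size alone, and ran from -0.17 to 0.0631 without single libraries. Mxi1 ran from -0.0794 to 0.17, and Txnip was 0.0128 with library size alone. Myc and Mycn over the MXD genes without Mnt gave -0.87 where all activators over all repressors gave -0.52. The Myc over Mnt difference ran from -0.19 to 0.14. The cause of these shifts was not tested.

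Higher calls among all genes were 2614 with library size alone and 998 to 1681 without single libraries, against 1679. Among partners and cofactors 4 rose with upper-quartile factors, 5 with library size alone and 1 to 3 without single libraries. In the turnover list 5 rose with library size alone. Among nucleolar targets 22 fell and 1 rose without the filter, 1 rose with the replicate block, and without single libraries 8 to 19 fell and 1 to 2 rose. Among metabolic targets 2 rose with upper-quartile factors, library size alone and DESeq2, and 0 to 1 without single libraries. Among translation and cell cycle targets 2 rose with upper-quartile factors, 4 with library size alone and 2 without the filter; without single libraries 5 to 8 fell and 0 to 2 rose. Among MLX targets 0 to 1 rose without single libraries.

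Libraries of the same replicate number had correlations of deviations of 0.253, -0.264 and -0.227 for replicates 1, 2 and 3. Tatcre 1 correlated best with mock 1, tatcre 2 with mock 3 (0.306) and tatcre 3 with mock 2 (0.376), and the labels give no such pairing. The replicate block thus does not follow these correlations for replicates 2 and 3. With the replicate block Myc had -0.76 (edgeR adjusted p = 0.00299), Mnt -0.71 (edgeR adjusted p = 0.0393) and Mxd1 0.73 (edgeR adjusted p = 0.00525), and 2108 genes fell and 1313 rose. Ratios divided by length were not run. Low counts limit Mycn, Mycl and Mxd3.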
